A study of Sus scrofa with 16 samples.

Results

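The genes described here encode the splicing factors and snRNP proteins of the pig pituitary, that is the SF3A, SF3B, SNRP, SRSF, HNRNP, LSM, PRPF and U2AF families. They were chosen by the gene symbols of the deposited comparison and a minimum of 10 counts in at least 8 pigs. This rule uses no difference between the groups, although earlier results of these data were known when the genes were chosen. In total, 60 of the 25880 genes in the count table met the rule, and all 60 had at least 10 counts in every pig (the lowest count was 22). Whole pituitaries came from 16 female Złotnicka White pigs, a native Polish breed, with 8 pigs of low feed conversion (LFC) and 8 of high feed conversion (HFC). The gilts were unrelated, came from different farms, were fed and housed alike at a single test station and were slaughtered at 100 ± 2 kg, with day 180 in the labels of both groups. No treatment was given, and feed conversion was a measured trait, which the labels hold in a field named for shear force. For this breed the paper reports more days in test, lower daily gain and less carcass meat in the HFC pigs. It also reports thicker fat at several points in them, so feed conversion cannot be told apart from growth and fatness here. RNA with an integrity number over 7 was sequenced with a kit that did not keep the strand, and the counts per library totalled 6010629 to 11794256.

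Introns are removed from pre-mRNA by the spliceosome, which is assembled from small nuclear ribonucleoproteins (snRNPs), each an RNA with its proteins. U1 and U2 snRNPs recognise the ends of the intron, the U4/U6.U5 tri-snRNP then joins, and the complex is rearranged for catalysis. SR proteins (SRSF genes) mostly promote and hnRNP proteins (HNRNP genes) often repress the use of an exon, and in endocrine cells such choices shape channels, receptors and hormone transcripts. Most of these genes are active in many cell types, and in whole pituitaries fewer cells of a type and less RNA per cell cannot be told apart.

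Expression is given as CPM, the counts scaled by the TMM method relative to library size. Log2 fold changes are positive where the HFC pigs had the higher value. CPM are not divided by transcript length, so they are compared between pigs and not between genes. Together the 60 genes took 0.473% to 0.756% of all counts in an LFC pig and 0.569% to 0.742% in an HFC pig. The genes lie on 17 chromosomes of Sscrofa11.1, 15 of them on chromosome 6, and SNRPN lies on the unplaced scaffold AEMK02000602.1 (104563 to 142534). Of the 60 genes, 28 overlap another listed gene in position, counted from start to end with introns included. Without strand, reads from exon bases that such neighbours share cannot be told apart. Whether their exons overlap was not examined. Those 28 include SNRPN, SNRPD2, LSM3, LSM12, SF3B1, PRPF8, SRSF2, HNRNPA1, HNRNPA2B1 and HNRNPU, which are described below. Reads could also be divided among near-identical copies in families such as HNRNPA1, which was not tested.

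Across both groups, 3 pigs stood apart in these genes, namely LFC 4, LFC 6 and HFC 5, as seen once all values were known. HFC 5 and LFC 6 had the fewest counts of all pigs (6010629 and 6258650), while LFC 4 had 7439215. The pituitary hormone genes were high throughout, with PRL, of the lactotrophs, at 15500 to 56700 CPM in the LFC pigs and 39900 to 113000 CPM in the HFC pigs, and GH1 with GHRHR, of the somatotrophs, at 27900 to 64400 CPM and 23100 to 86000 CPM. The fibroblast genes COL1A1, COL1A2 and DCN summed to 138 to 321 CPM in the LFC pigs and 253 to 518 CPM in the HFC pigs. The part of these cell type markers in the group differences given next was not tested. POMC, GNRHR, LHB, PITX1, S100B and HBA1 were not matched by name and were not analysed here.

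The comparison of HFC with LFC pigs asked whether splicing machinery was expressed differently at different feed conversion. The 60 genes were evenly divided, with 30 higher and 30 lower in the HFC pigs, and their median log2 fold change was 0.00, against -0.01 over the 13621 genes tested. Log2 fold changes ran from -0.39 for LSM3, a protein of the ring that holds U6 RNA, to 0.40 for PRPF8, the large protein at the catalytic centre of the spliceosome. The Sm core and U6-ring genes all had lower means in the HFC pigs, whereas most SR, hnRNP and tri-snRNP genes had higher means.

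None of the 60 genes passed the test for a difference. With thresholds of 0.05 on the adjusted p and 1.3 on the fold change, 0 of the 60 were called, against 0% of all genes tested. The smallest adjusted p was 0.419 among the 60 and 0.372 among all genes (edgeR quasi-likelihood F test, adjusted by Benjamini-Hochberg). DESeq2 and limma voom also called 0 of the 60, while DESeq2 called 29 of all genes. With DESeq2 and the same thresholds, the paper reports far more differing genes in this breed. Its printed lists, which hold genes of enriched terms and not every differing gene, include SNRNP200 and SF1. These are splicing genes outside the 60 that are described below. The printed lists cannot show whether any of the 60 differed in the paper. The reason for the different counts was not tested. At an unadjusted p of at most 0.05, 1 of the 60 was found, LSM3, while 11.4% of all genes tested were. Counting lower values in the HFC pigs alone, the background at that p was 4.41% of all genes tested, 46.0% of the genes past that p being higher under total library scaling and 61.4% under TMM. None of the 60 had LFC and HFC values that did not overlap, which was the case for 0.00734% of all genes tested, that is for 1 gene. As a measure of precision, the 95% interval of the fold change lay within 1.3-fold in both directions for 28 of the 60 genes, against 31.3% of all genes tested. For the remaining genes the interval reached past 1.3-fold in at least 1 direction. Without HFC 5, 11 of the 60 reached an unadjusted p of at most 0.05, against 25.7% of all genes tested, so both shares moved with that pig.

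**Figure D1:**
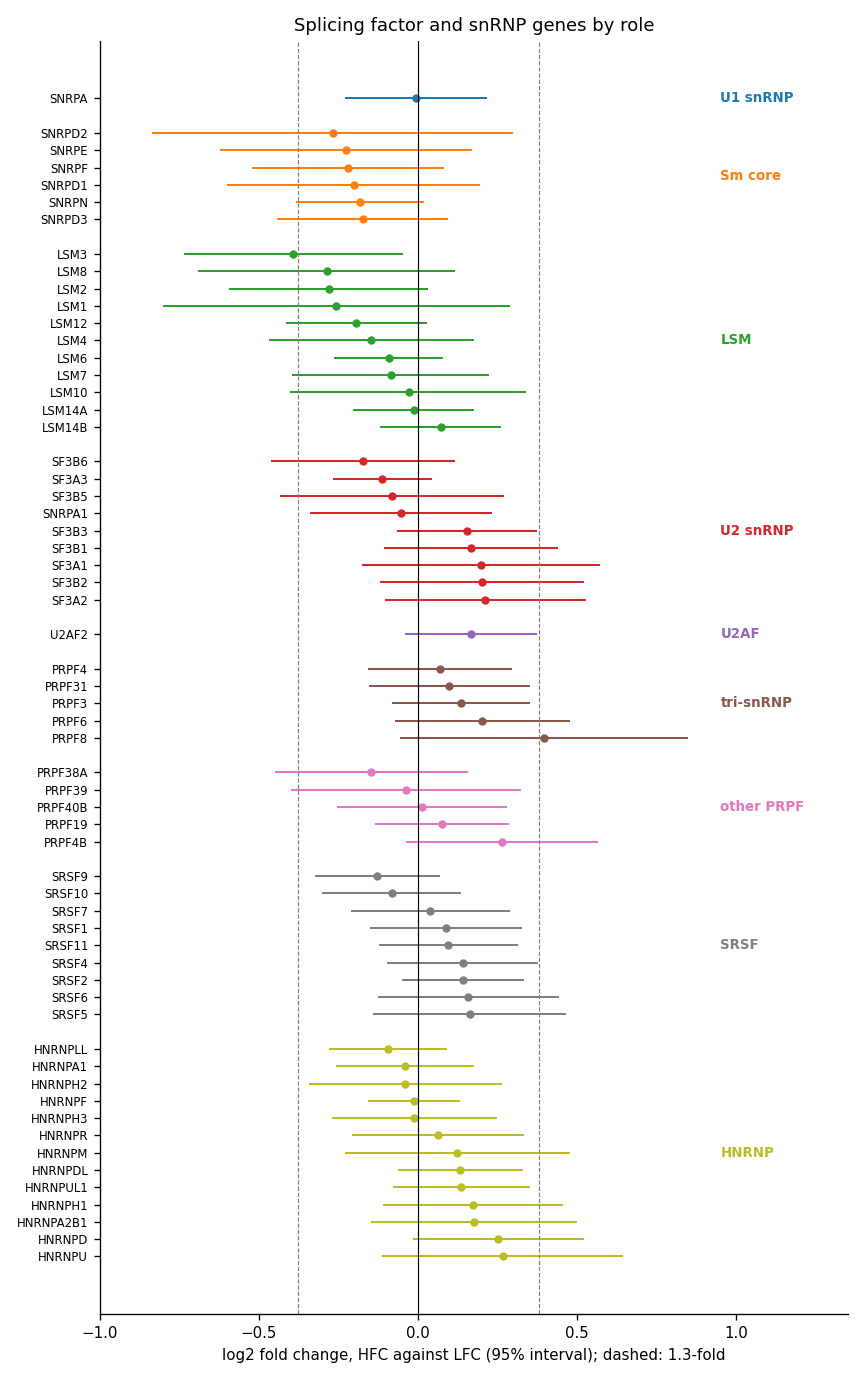
Log2 fold change of the 60 splicing genes between HFC and LFC pigs (x axis, log2 scale), each point with its 95% interval from edgeR's quasi-likelihood fit, ordered by role, with dashed lines at a fold change of 1.3 in each direction. All 6 Sm core points lie left of 0 and all 5 tri-snRNP points lie right of 0, and LSM3 has the interval that lies wholly on one side of 0.

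**Figure D2:**
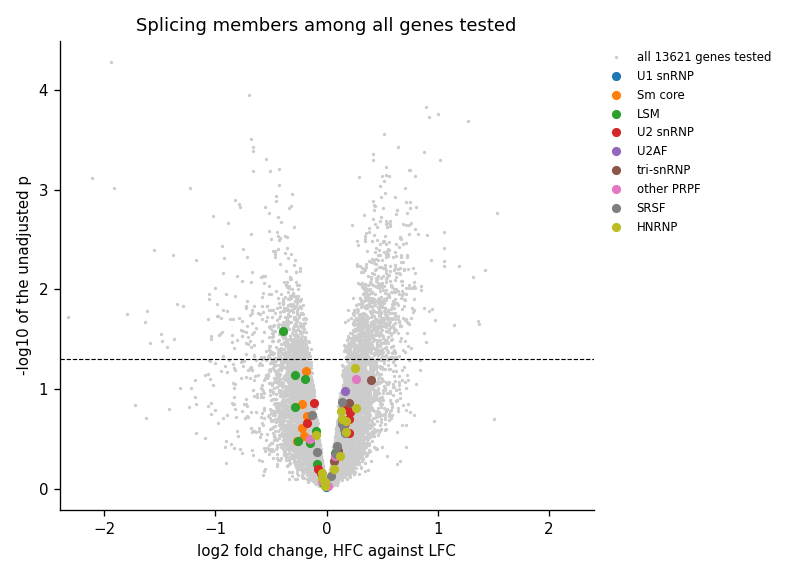
The 60 splicing genes by role (coloured) among all 13621 genes tested (grey), with the log2 fold change between HFC and LFC pigs on the x axis and -log10 of the unadjusted p of the quasi-likelihood F test of edgeR on the y axis. LSM3 lies above the dashed line at a p of 0.05, and the other coloured points lie below it.

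The Sm proteins form the ring around the RNA of the U1, U2, U4 and U5 snRNPs. Of the 6 Sm core genes measured, all had lower means in the HFC pigs, with a median log2 fold change of -0.21 and a range of -0.27 (SNRPD2) to -0.17 (SNRPD3), and 0 reached an unadjusted p of 0.05. For comparison, 7095 of the 13621 genes tested had lower values in the HFC pigs. This direction of the 6 genes was the same under each other tool, scaling and filter and with any pig left out, with a median between -0.30 (without HFC 5) and -0.10 (without LFC 4), and of -0.14 without HFC 1. The ring genes share their largest deviations in the same pigs, so their 6 values are not independent.

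SNRPN, an imprinted Sm protein gene, was the Sm core gene with the smallest p. Its lowest, median and highest values were 196, 242 and 255 CPM in the LFC pigs and 166, 206 and 238 CPM in the HFC pigs. The groups overlapped, although 0 of the 8 HFC pigs lay above the median of the LFC pigs. Mean values were 234 ± 21.9 CPM (SD, n = 8) for LFC and 206 ± 26.6 CPM (SD, n = 8) for HFC. This gave a log2 fold change of -0.18 (SE 0.09) and an adjusted p of 0.447 (edgeR quasi-likelihood F test, adjusted by Benjamini-Hochberg).

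SNRPD2 (chromosome 6, 52035160 to 52042488) varied most between pigs among the 60 genes. It reached 294 CPM in LFC 4 and 303 CPM in HFC 5, while the other LFC pigs had 98.1 to 184 CPM and the other HFC pigs 74.6 to 127 CPM. A single pig of each group therefore stood far above its group. Its means of 154 ± 62.3 CPM (SD, n = 8) and 128 ± 72.9 CPM (SD, n = 8) gave a log2 fold change of -0.27 with a 95% interval from -0.83 to 0.29. Without LFC 4 the log2 fold change was -0.06, and without HFC 5 it was -0.56, the latter with an adjusted p of 0.108 by the edgeR quasi-likelihood F test, adjusted by Benjamini-Hochberg.

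The LSM proteins resemble the Sm proteins. LSM2 to LSM8 ring the end of U6 RNA, while LSM1 replaces LSM8 in the ring that takes part in decay of mRNA in the cytoplasm. Of 11 LSM genes, 10 had lower means and 1 a higher mean in the HFC pigs, with a median log2 fold change of -0.15. Without LFC 4 the median was -0.06 with 3 genes higher, without LFC 6 it was -0.07 with 2 higher, and without HFC 1 it was -0.10. All 6 measured genes of the U6 ring (LSM2, LSM3, LSM4, LSM6, LSM7 and LSM8) were on the lower side, although LSM7 turned to 0.02 with limma voom and to at most 0.01 without LFC 4 or LFC 6.

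LSM3 (chromosome 13, 70339580 to 70348713) had values of 16.1, 21.3 and 30.6 CPM (lowest, median, highest) in the LFC pigs and of 14.0, 16.4 and 29.7 CPM in the HFC pigs. The groups overlapped, with HFC 5 near the top of the LFC range and 7 of the 8 HFC pigs between 14.0 and 18.2 CPM. The means were 23.1 ± 5.25 CPM (SD, n = 8) and 17.7 ± 5.03 CPM (SD, n = 8). LSM3 had a log2 fold change of -0.39 (95% interval -0.73 to -0.05), with an unadjusted p of 0.0261 and an adjusted p of 0.419 in the edgeR quasi-likelihood F test, adjusted by Benjamini-Hochberg. The unadjusted p was above 0.05 without LFC 4, LFC 6, LFC 8, HFC 1 or HFC 4, and the fold change lay between -0.51 and -0.32 (log2) over all 16 fits that omitted a pig. LSM3 overlaps XPC in position.

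LSM2 had 20.6, 25.7 and 36.1 CPM in the LFC pigs and 15.3, 21.3 and 33.8 CPM in the HFC pigs (log2 fold change -0.28). LSM12, which is not part of either ring, had 12.9, 17.6 and 19.6 CPM in the LFC pigs and 12.7, 14.6 and 18.1 CPM in the HFC pigs (log2 fold change -0.19). The ranges of both genes overlapped over most of their length, and their unadjusted p were 0.0723 and 0.0786 in the quasi-likelihood F test of edgeR. LSM14A and LSM14B encode proteins of cytoplasmic RNA granules and lay close to 0, with log2 fold changes of -0.01 (95% interval -0.20 to 0.17) and 0.07 (95% interval -0.12 to 0.26).

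In the U2 snRNP, the SF3A and SF3B proteins hold the branch point of the intron. Of 9 genes, 5 had higher and 4 lower means in the HFC pigs, with a median log2 fold change of 0.15. SF3A1, SF3A2, SF3B1, SF3B2 and SF3B3 were on the higher side, and SF3A3, SF3B5, SF3B6 and SNRPA1 on the lower side. With a pig left out, SF3B5 and SNRPA1 turned to values of at most 0.04 and 0.01. The extremes were SF3A2 at 0.21 and SF3B6 at -0.17. SF3A3 was the U2 gene with the smallest p and had 60.1, 63.1 and 72.8 CPM in the LFC pigs and 53.0, 58.6 and 67.1 CPM in the HFC pigs. The difference of -0.11 on the log2 scale had a standard error of 0.07, which left the whole 95% interval (-0.27 to 0.04) within 1.3-fold.

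SF3B1 is the subunit that contacts the branch point RNA and is often mutated in blood cancers. Its values were 291, 343 and 527 CPM in the LFC pigs and 367, 400 and 510 CPM in the HFC pigs. All 8 HFC pigs lay above the median of the LFC pigs. However, LFC 7 (527 CPM) lay above all HFC pigs and LFC 1 (461 CPM) above all but HFC 4 (510 CPM). The difference on the log2 scale was 0.17 (SE 0.13). SF3B1 overlaps ANKRD44 and HSPD1 in position. SNRPA, the U1 gene among the 60, had a log2 fold change of -0.01 (95% interval -0.23 to 0.21). U2AF2 recognises the polypyrimidine tract before the end of the intron. It had 120, 159 and 177 CPM in the LFC pigs and 141, 172 and 198 CPM in the HFC pigs, and 7 of the 8 HFC pigs lay above the LFC median. U2AF2 had a log2 fold change of 0.17 and an unadjusted p of 0.105 in the quasi-likelihood F test of edgeR.

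The PRPF proteins of the tri-snRNP bring U5 and the paired U4 and U6 RNAs into the complex. All 5 such genes among the 60 (PRPF3, PRPF4, PRPF6, PRPF8 and PRPF31) had higher means in the HFC pigs. They ran from 0.07 for PRPF4 to 0.40 for PRPF8, with a median of 0.13, or 0.21 without LFC 7. Tri-snRNP genes outside the 60 went in both directions, as given below. The direction of the 5 genes held under each other tool, scaling and filter and with any pig left out, while 0 of them reached an unadjusted p of 0.05.

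PRPF8 (chromosome 12, 47857307 to 47895231) had 86.3, 161 and 279 CPM in the LFC pigs and 116, 223 and 279 CPM in the HFC pigs. To 3 digits the highest values of the groups were the same, and LFC 6 and LFC 4 (107 CPM) were lowest in their group as HFC 5 was in its own. The means were 168 ± 62.0 CPM (SD, n = 8) and 221 ± 54.3 CPM (SD, n = 8), and 7 of the 8 HFC pigs lay above the LFC median. The difference of 0.40 on the log2 scale (SE 0.21) had an adjusted p of 0.457 in the edgeR quasi-likelihood F test, adjusted by Benjamini-Hochberg. The 95% interval ran from -0.05 to 0.84, so neither no change nor a change well past 1.3-fold lay outside it. PRPF8 overlaps SCARF1 in position.

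Among the 5 other PRPF genes, 3 had higher and 2 lower means in the HFC pigs, with a median of 0.01. PRPF4B, a kinase that phosphorylates tri-snRNP proteins, had 43.5, 65.1 and 88.2 CPM in the LFC pigs and 53.0, 80.8 and 95.1 CPM in the HFC pigs. Apart from HFC 5, the HFC pigs lay between 76.0 and 95.1 CPM and overlapped the upper part of the LFC range, with HFC 1 (92.5 CPM) and HFC 4 (95.1 CPM) above all LFC pigs. PRPF4B had a log2 fold change of 0.26 with an unadjusted p of 0.0793 in the quasi-likelihood F test of edgeR. PRPF38A was the lowest at -0.15, and PRPF19, a ubiquitin ligase needed for activation of the spliceosome, was at 0.07 (95% interval -0.13 to 0.28).

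Of the 9 SR protein genes, 7 had higher and 2 lower means in the HFC pigs, and the median log2 fold change was 0.09, or 0.05 without LFC 5 and 0.15 without LFC 7. Their span was narrow, from -0.13 (SRSF9) to 0.16 (SRSF5), and the interval lay within 1.3-fold for 7 of the 9 genes. SRSF2, which binds exonic enhancers, had 123, 132 and 168 CPM in the LFC pigs and 128, 157 and 168 CPM in the HFC pigs. The highest values were the same to 3 digits, and 7 of the 8 HFC pigs lay above the LFC median. The difference on the log2 scale was 0.14 with a 95% interval from -0.05 to 0.33. SRSF5 ran from 52.7 to 111 CPM in the LFC pigs, which enclosed the 70.5 to 100 CPM of the HFC pigs. SRSF1, which promotes the use of splice sites, had a log2 fold change of 0.09 (95% interval -0.15 to 0.32).

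Of the 13 hnRNP genes, 8 had higher and 5 lower means in the HFC pigs, with a median of 0.12 and a range of -0.10 (HNRNPLL) to 0.27 (HNRNPU). The median was 0.07 without LFC 4, 0.04 without LFC 6 and 0.08 with limma voom. HNRNPD, also called AUF1, binds AU-rich elements that mark mRNAs for decay. It had 67.8, 105 and 115 CPM in the LFC pigs and 84.0, 119 and 142 CPM in the HFC pigs. LFC 6, LFC 4 and HFC 5 were the lowest pigs, and 7 of the 8 HFC pigs lay above the LFC median. HNRNPD differed by 0.25 on the log2 scale (SE 0.13), with an adjusted p of 0.444 in the edgeR quasi-likelihood F test, adjusted by Benjamini-Hochberg.

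HNRNPU, a nuclear scaffold protein, had 147, 310 and 370 CPM in the LFC pigs and 236, 357 and 391 CPM in the HFC pigs. HNRNPA2B1, which also sorts RNAs for transport, had 365, 683 and 770 CPM in the LFC pigs and 540, 721 and 821 CPM in the HFC pigs. In both genes the low ends of the groups were again LFC 6 and HFC 5. HNRNPA1 stayed near 0 with a log2 fold change of -0.04 (95% interval -0.26 to 0.17). HNRNPF was the steadiest of the 60 genes, with 182 ± 9.73 CPM (SD, n = 8) for LFC and 180 ± 8.34 CPM (SD, n = 8) for HFC.

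**Figure D3:**
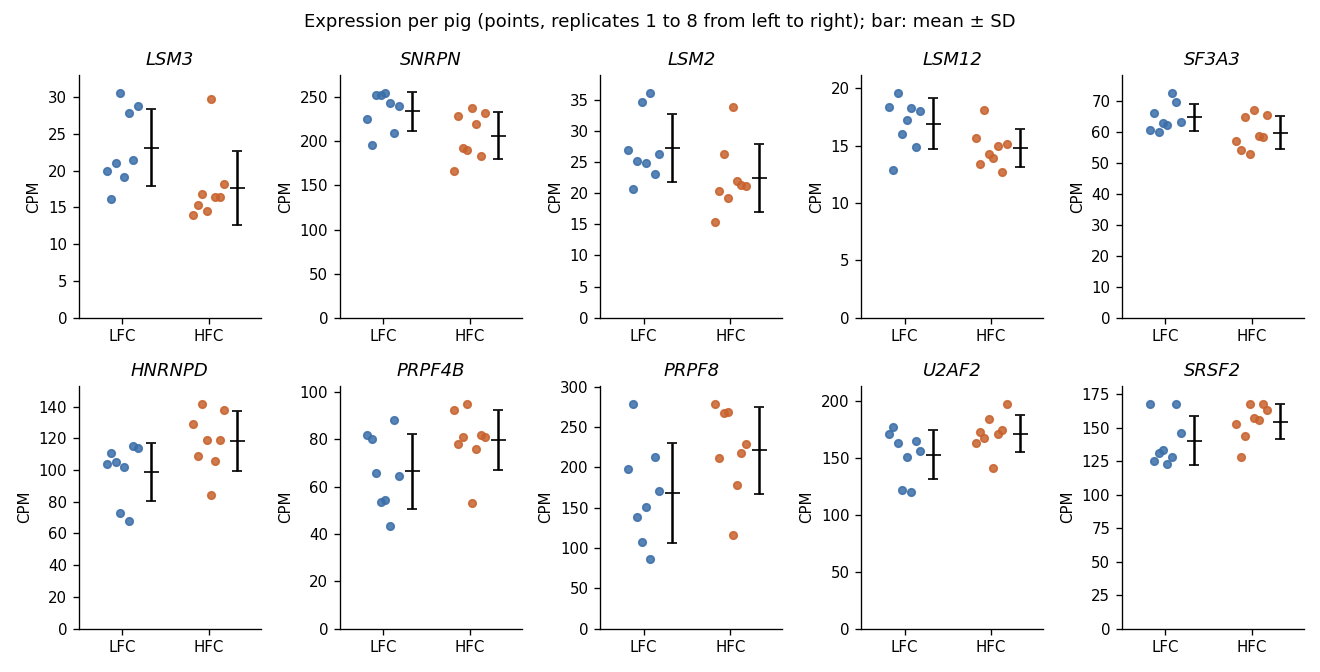
Expression in CPM (y axis, from 0) of the 5 splicing genes of smallest p in either direction, in the 8 LFC and 8 HFC pigs (points), with the mean and SD of each group (bars). The points of the groups overlap in every panel, and HFC 5 is the high HFC point of LSM3 (29.7 CPM) and the low HFC point of PRPF8 (116 CPM).

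The families held 19 more genes that the symbol rule did not take, of which 18 were tested. Of these, 8 had higher and 10 lower means in the HFC pigs and 0 reached an unadjusted p of 0.05. SNRNP200, the helicase that unwinds U4 from U6, was at 0.27, while SNRNP27 (-0.23) and SNRNP40 (-0.18), also of the tri-snRNP, were on the other side of 0 from the 5 PRPF genes. LSM5, of the U6 ring, was at -0.31. SNRNP70 of the U1 snRNP was at 0.11, U2AF1 at -0.10 and SRSF3 at -0.08, each with an interval that included 0.

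Of 138 other splicing genes listed, 126 were tested, and 6 were higher and 4 lower in the HFC pigs at an unadjusted p of 0.05, a smaller share than the 11.4% of all genes tested. No gene of these lists passed the adjusted threshold, the smallest adjusted p being 0.413 (edgeR quasi-likelihood F test, adjusted by Benjamini-Hochberg). Among 63 other spliceosome subunits, 4 were higher, namely SRRM2 (log2 fold change 0.68), CHERP (0.45), SF1 (0.36) and LUC7L (0.25), and 2 were lower, CWC15 (-0.39) and SYF2 (-0.30). SRRM2 is a large protein of nuclear speckles, and SF1 binds the branch point before U2 does. Among 19 genes of snRNP assembly, 2 were lower, WDR77 (-0.30) and CLNS1A (-0.23), which belong to the complex that methylates and loads Sm proteins, while PRMT5, its methyltransferase, was at 0.05. None of the 7 kinases of SR proteins reached that p. Of 9 exon junction complex genes, ACIN1 was higher, and of 28 tissue-restricted regulators, the neuronal factor NOVA2 (0.54) was higher.

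The median SD within groups was 0.26 on the log2 scale over the 60 genes, against a median absolute log2 fold change of 0.14 between the groups. The first principal component of the 60 genes over the 16 pigs held 64.3% of their variance, while the first component of all genes tested held 29.6% of theirs. On it 28 genes had positive and 32 negative loadings, with SNRPD2 (0.298) and PRPF8 (-0.274) at the ends. LFC 4, LFC 6 and HFC 5 had scores of 0.483, 0.4 and 0.368, and the other 13 pigs lay between -0.285 and 0.074. These pigs were singled out after their values were seen, and they come from both groups.

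In LFC 4, the Sm core genes were on average 0.65 higher on the log2(CPM + 1) scale than their mean over all pigs, and in HFC 5 they were 0.58 higher. LFC 6 was only 0.15 higher in the Sm core genes but 0.41 higher in the U6-ring genes. The hnRNP genes were lower by the same measure in these pigs, at -0.32 in LFC 4, -0.51 in LFC 6 and -0.15 in HFC 5, and the tri-snRNP genes were at -0.33, -0.42 and -0.19. LFC 5 was as low as HFC 5 in both (-0.15 and -0.20), so these low values were not particular to the pigs that stood apart. HFC 1 and HFC 4 were opposite, with Sm core values of -0.68 and -0.43. The SR protein genes had their ends in other pigs, with -0.26 in LFC 2 and 0.27 in LFC 7.

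**Figure D4:**
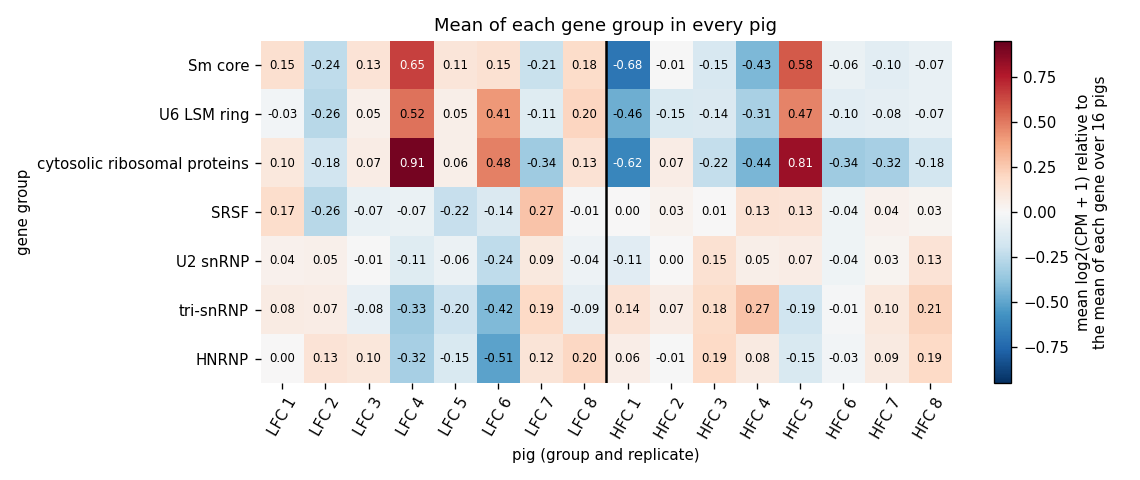
Mean log2(CPM + 1) of each gene group in every pig relative to the mean of each gene over the 16 pigs (colour and printed value, log2 scale), with gene groups as rows and pigs as columns, LFC left and HFC right of the line. The Sm core, U6 LSM ring and ribosomal protein rows are highest in LFC 4 (0.65, 0.52 and 0.91) and lowest in HFC 1 for each of these rows.

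Some other measures moved with parts of this pattern. The 59 cytosolic ribosomal protein genes were 0.91, 0.48 and 0.81 above their mean in LFC 4, LFC 6 and HFC 5 and -0.62 and -0.44 in HFC 1 and HFC 4. Between the groups all 59 had lower means in the HFC pigs, with a median log2 fold change of -0.28, and 2 of them reached an unadjusted p of 0.05. The summed level of the red blood cell genes ALAS2 and HBB was 1430, 651 and 1050 CPM in LFC 4, LFC 6 and HFC 5. The other pigs had 63.1 to 823 CPM, and LFC 7 (823 CPM) lay above LFC 6. Gonadotroph and thyrotroph genes (CGA, FSHB, TSHB) summed to 61700, 28100 and 44200 CPM in these pigs, the highest of their groups in LFC 4 and HFC 5. Fibroblast genes (COL1A1, COL1A2, DCN) were at 149, 138 and 253 CPM, the lowest of their groups. Corticotroph genes (PCSK1, TBX19) were at 194 CPM in LFC 4 and 148 CPM in HFC 5, again the lowest of their groups, and at 226 CPM in LFC 6. Lactotroph, somatotroph and pituitary transcription factor genes lay within the range of the other pigs of each group. Endothelial and posterior lobe glial genes reached an end of their group in LFC 6 alone and leukocyte genes in LFC 4 alone. The part of these markers and of sequencing depth in the pattern was not tested. Over the 60 genes the log2 fold change was higher in genes with a longer span in the genome (Pearson's r of 0.391 with log10 of the span), which is across genes that share libraries and are not independent replicates.

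PRPF8 and the Sm core genes ran opposite to each other over the pigs. The U6-ring and ribosomal protein genes, like the Sm core, were highest of their groups in LFC 4 and HFC 5 and lowest in HFC 1. Correlations of PRPF8 with these or other gene groups were not computed. The relation is therefore not shown to be particular to PRPF8 and the Sm core. The 6 pairs of PRPF8 with an Sm core gene were chosen after the values were seen. Both genes of a pair share a library and its scaling. PRPF8 and SNRPD2 are the ends of the first component of the same pigs, so negative values were partly built into the choice. The p-values below therefore describe these pairs and are no independent test. Over the 16 pigs, Pearson's r of log2(CPM + 1) was -0.844 for SNRPD2 (permutation p 3e-05) and -0.841 for SNRPD3 (permutation p 5e-05), and it was weakest for SNRPE at -0.62 (permutation p 0.00965). Spearman's rho ran from -0.903 for SNRPD3 (permutation p 1e-05, the smallest that 100000 permutations can give) to -0.676 for SNRPE (permutation p 0.00527). Adjusted over the 6 pairs by Benjamini-Hochberg, the two-sided permutation p were between 0.00015 and 0.00965 for r and between 6e-05 and 0.00527 for rho.

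The same pairs were also negative in subsets of the pigs. As the pairs were chosen in these pigs, the values and p below describe them and are again no independent test. With the 2 pigs farthest from the median of PRPF8 left out (LFC 6 and LFC 4), r was between -0.733 and -0.845, and in the 13 pigs without LFC 4, LFC 6 and HFC 5 it was between -0.654 and -0.842. Within the HFC pigs r ran from -0.698 for SNRPN (exact permutation p 0.0248) to -0.941 for SNRPD2 (exact permutation p 0.00417). Within the LFC pigs r ran from -0.36 for SNRPE (exact permutation p 0.386) to -0.804 for SNRPN (exact permutation p 0.00952), and the pairs with SNRPE and SNRPF did not reach 0.05 there.

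**Figure D5:**
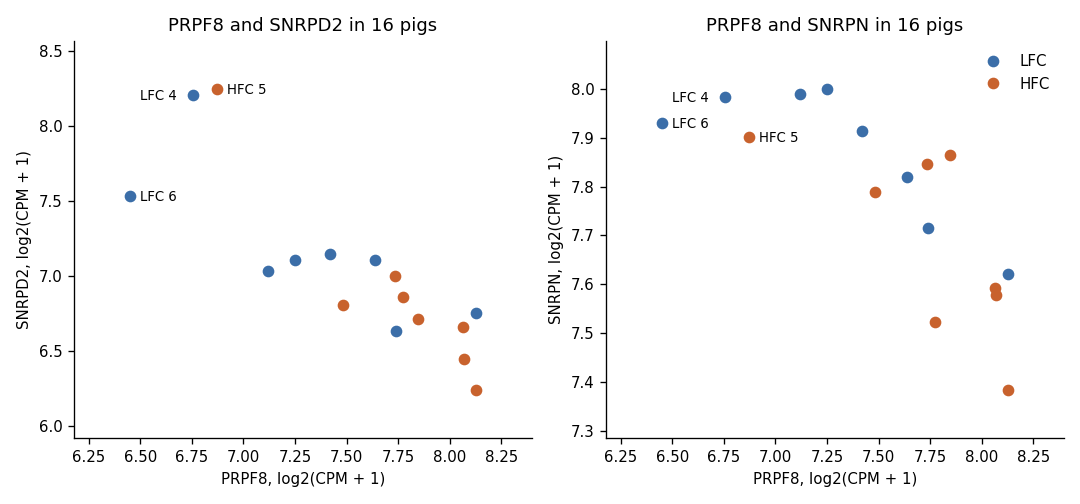
PRPF8 (x axis) against SNRPD2 and SNRPN (y axes), all as log2(CPM + 1), in the 8 LFC (blue) and 8 HFC pigs (orange), with each point 1 pig. LFC 4, LFC 6 and HFC 5 lie at the low end of PRPF8, and the remaining pigs also fall from left to right in both panels.

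Without HFC 5, genes from both ends of the pattern reached an unadjusted p of 0.05. The share of the 60 was below the 25.7% of all genes tested in that fit. Of the 11 genes, 5 were higher in the HFC pigs, namely PRPF8 (0.51), PRPF4B (0.35), HNRNPD (0.33), PRPF6 (0.28) and U2AF2 (0.22). The 6 lower genes were SNRPD2 (-0.56), LSM3 (-0.51), LSM8, LSM2 (-0.36), SNRPF (-0.28) and SNRPN (-0.19). The smallest adjusted p of the 60 was then 0.0926 for LSM3 (edgeR quasi-likelihood F test, adjusted by Benjamini-Hochberg), and 0 were called. Leaving out LFC 4, LFC 6, HFC 1 or HFC 4 left 0 of the 60 genes at an unadjusted p of 0.05.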

How the data were processed

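Counts of reads per Ensembl gene and pig were deposited by the authors as whole numbers with no normalization, after trimming and alignment to Sscrofa11.1. The methods name Flexbar, Bowtie 2 and RSEM supported by STAR, and the submitters' processing notes name CASAVA 1.8.2, FastQC, RSEM, STAR and DESeq2. A second deposited table holds the authors' comparison (group means, ratio, log2 ratio and p-values), of which only the symbols and gene positions, in bases, were used. 0 columns of the count table were unused. Puławska pigs were not analysed here.

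In R 4.3.3, edgeR 4.0.16 was run on all 16 pigs with TMM scaling, its expression filter (13621 genes), a quasi-likelihood F test per gene, and p-values adjusted by Benjamini-Hochberg over all genes tested. The thresholds for a call were 0.05 for the adjusted p and 1.3 for the fold change, as in the study's methods. Intervals are 95% intervals from the fit. The common coefficient of variation between pigs was 0.249, and chi-square values per degree of freedom between libraries of a group were 11.9 or more, so no pig was a copy. Correlations used log2(CPM + 1), 100000 permutations over 16 pigs and exact ones over 8, two-sided, in Python 3.11.15 with scipy 1.17.1. The scripts were tested on simulated data.

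The genes, gene lists and alternatives were chosen with earlier results of these data known. Named were the 5 genes with the smallest unadjusted p in each direction, the highest and lowest fold change of each role group of at least 3 genes, and SNRPN, SF3B1, U2AF2, PRPF8, PRPF19, SRSF1, HNRNPA1, HNRNPA2B1, HNRNPU and LSM14A. HNRNPF, SNRPE, LSM7 and the genes given for HFC 5 were named after their values were seen, as were the other splicing genes past an unadjusted p of 0.05. The reference held no transcript lengths, so spans in the genome were used. The alternatives were DESeq2 1.42.0, limma 3.58.1 voom with sample quality weights, scaling by RLE or by the library total, a minimum of 10 counts in 8 pigs or no filter, a stricter p of 0.01, a replicate block and each pig left out in turn.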

Additional observations from a re-analysis of the deposited data

Results flagged for a closer look

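Within a group of 8 pigs, a single pig lay far from the other 7 by Dixon's criterion in 20 of 120 sets of values, 60 genes in 2 groups. Chance flags about 1 in 20 groups, and the genes vary together, so these are not 20 separate events.

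Of the 20 values, 15 belonged to HFC 5. It was highest of the HFC pigs in SNRPD2 (303 CPM, the others 74.6 to 127 CPM), SNRPD1 (76.5 CPM), LSM1 (29.9 CPM), LSM3 (29.7 CPM), LSM4 (80.0 CPM), LSM8 (42.8 CPM), SF3B5 (123 CPM), SNRPA1 (29.9 CPM), SRSF7 (107 CPM), SRSF10 (110.0 CPM), PRPF38A (46.6 CPM) and PRPF39 (42.5 CPM). It was lowest of them in HNRNPUL1 (109 CPM, the others 136 to 154 CPM), SF3B2 (134 CPM) and PRPF4B (53.0 CPM).

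LFC 4 was highest of the LFC pigs in SNRPD2 (294 CPM), SNRPD1 (81.6 CPM), SNRPE (64.4 CPM) and LSM1 (38.2 CPM, the others 10.4 to 17.9 CPM). In HFC 4, SF3B1 reached 510.0 CPM, while the other HFC pigs had 367 to 422 CPM.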

How the results depend on the processing

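No splicing gene was called under any alternative (edgeR, DESeq2 or voom). At an unadjusted p of 0.05, the counts were 0 higher and 1 lower, against 958 and 601 of the 13621 genes tested. They became 1 and 2 with DESeq2, against 1157 and 736 of 18963 genes. With voom they were 2 and 6, against 1313 and 1227 of 13621 genes (2540 of all genes). Total library scaling gave 3 lower, against 750 lower of 13621 genes, and a p of 0.01 gave 0 lower. The smallest adjusted p of the 60 lay between 0.157 (voom) and 0.498 over these settings. DESeq2 called 29 of all genes. Of all genes past an unadjusted p of 0.05, 61.4% were higher in the HFC pigs, against 46.0% with total library scaling, which moved the median of all genes by 0.01.

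The replicate block gave 3 higher genes (HNRNPD, PRPF4B and PRPF8) and LSM3 lower, against 907 higher and 497 lower of 13621 genes. The numbers do not pair the pigs, since 2 of 8 pairs correlated above 0.1 and 0 LFC pigs correlated best with their own number. With each pig left out, the counts ran from 0 to 5 higher and from 0 to 6 lower, and over all genes from 989 (without HFC 4) to 3514 (without HFC 5). The most higher genes came without LFC 7 or HFC 5 and the most lower genes without HFC 5.

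The sign held under every alternative for 46 of the 60 genes. It turned for SNRPA with DESeq2 (0.001), total library scaling (0.008) and a minimum of 10 counts (0.014), for HNRNPF (0.006), HNRNPH3 (0.006) and LSM14A (0.005) with that minimum, for LSM7 (0.019), LSM10 (0.012) and PRPF40B (-0.056) with voom, and for HNRNPH3 (0.018) with the replicate block. With a pig left out it turned for HNRNPA1 (-0.073 to 0.007), HNRNPF (-0.026 to 0.01), HNRNPH2 (-0.099 to 0.037), HNRNPH3 (-0.071 to 0.062), LSM1 (-0.445 to 0.012), LSM10 (-0.116 to 0.043), LSM14A (-0.034 to 0.063), LSM7 (-0.155 to 0.006), PRPF39 (-0.119 to 0.052), PRPF40B (-0.041 to 0.077), SF3B5 (-0.174 to 0.036), SNRPA (-0.047 to 0.055), SNRPA1 (-0.138 to 0.006) and SRSF7 (-0.014 to 0.092). The cause was not tested. Depth of 6010629 to 11794256 counts per pig limits the low genes most, such as LSM10 with 22 counts in its lowest pig.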
